A study of Mus musculus with 2 samples.

Results

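Genes that make the lipids of sebum, the oily secretion of the sebaceous gland, were compared between 2 mouse skin samples labelled bulge and hairshaft. Both labels name structures of the hair follicle, and they are used here as given. The set holds 38 genes of fatty acid, wax ester and triglyceride synthesis. Its members were taken as every probe set whose platform gene symbol was one of these names. The array carried 79 such probe sets for 34 of the 38 genes, out of 18194 genes measured, and 31 of these 34 were above background on at least 1 array. Awat1, Awat2, Dgat2l6 and Alox15b were not analysed here. Elovl2, Mogat2 and Mc5r were not above background on either array.

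The bulge sample and the hairshaft sample were each 1 expression array, so there is no replicate and no difference could be tested. Both came from skin of C57Bl6 mice aged 21 days, with no genotype or treatment beyond this in the labels. Regions were cut by laser from eosin-stained frozen sections, and 30 ng of total RNA was amplified. How many animals or regions went into each array, and how a region was recognised, was not stated in the labels. The bulge is the part of the outer root sheath where follicle stem cells reside, and the sebaceous gland opens into the follicle just above it.

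Values are log2 GCRMA values, a scale on which a difference of 1 is 2-fold. Each gene is given by its brightest probe set. Background was set at 2.68 on each array, the 95th percentile over 80 probe sets of odorant and vomeronasal receptor genes. Differences are bulge minus hairshaft, and where the hairshaft value lay below background the fold is written as "at least". With 1 array each, every value and fold is a description of these 2 samples, and precision is limited by having 1 array of each. In such samples a larger share of lipid-making cells and more RNA per cell cannot be told apart.

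The labels were set against defining markers. Of 9 bulge markers, 8 were higher in the bulge by 2-fold or more, and the remaining one, Krt15, differed by 0.31 (log2). Of 10 keratins of the hair shaft, 6 passed 2-fold toward the bulge, 0 toward the hairshaft. Hair keratins were thus not at a higher level on the array labelled hairshaft, and Krt31, Krt33a, Krt35 and Krt86 were at or below background there. The 14 skeletal muscle markers and the 13 adipocyte markers above background were all higher in the bulge by 2-fold or more. Over all genes above background, this held for 11.4%, and 4.91% passed 2-fold toward the hairshaft. The correlation of both arrays across genes above background was 0.90 (Pearson; genes are not independent replicates).

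Sebum is made by sebocytes, which fill with lipid droplets and burst. The fatty acids are built in the cytosol from acetyl-CoA, lengthened by elongases, given double bonds by desaturases, and then joined to fatty alcohols as wax esters or to glycerol as triglycerides. Fat cells run most of the same pathway, and keratinocytes of the epidermis use its elongases for barrier lipids.

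Lipid synthesis genes were mostly higher in the bulge array. Of 31 members above background, 17 were higher in the bulge by 2-fold or more, 1 higher in the hairshaft by 2-fold or more and 13 under 2-fold apart. Over all 13329 genes above background, 11.4% were higher in the bulge by 2-fold or more and 4.91% in the hairshaft. At 8-fold the count was 7 of 31 members, against 3.02% of all genes. Counting any size of difference, a count added after the values were seen, 26 members were higher in the bulge, 4 in the hairshaft and 1 was equal, whereas 44.8% of all genes were higher in the bulge, and for 46.6% the hairshaft was higher. The median difference of the members was 1.35 (log2), and that of all genes was 0.00.

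The members were also set beside genes with a like brighter value, in 4 classes that were chosen after the values were seen. A gene higher in the bulge is placed in its class by its bulge value. The classes are thus not independent of the differences, and these counts only describe them. Among genes whose brighter value lay from 9 to 12, 10.2% of 3070 were higher in the bulge by 2-fold or more, against 8 of 15 members in that range. From 12 upwards the share was 12.8% of 430 genes, against 5 of 8 members. Between 6 and 9 it was 12.8% of 5643 genes, against 4 of 6 members. Below 6 it was 10.4% of 4186 genes, against 0 of 2 members, Fads2 and Mogat1.

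The 7 members past 8-fold were Elovl3, Far2, Acacb, Thrsp, Scd3, Mlxipl and Elovl5. With the probe sets of each gene averaged, Acacb was under 8-fold (2.85) and Scd1 past it (3.15), and Mlxipl was under 8-fold with background at the 99th percentile (2.32). Close to the 2-fold limit toward the bulge lay Gpam just inside it, with a difference of 1.03, and Acly just outside it, with 0.75. Toward the hairshaft, Agpat5 lay just inside it, with -1.11, and Elovl1 just outside it, with -0.79.

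**Figure D1:**
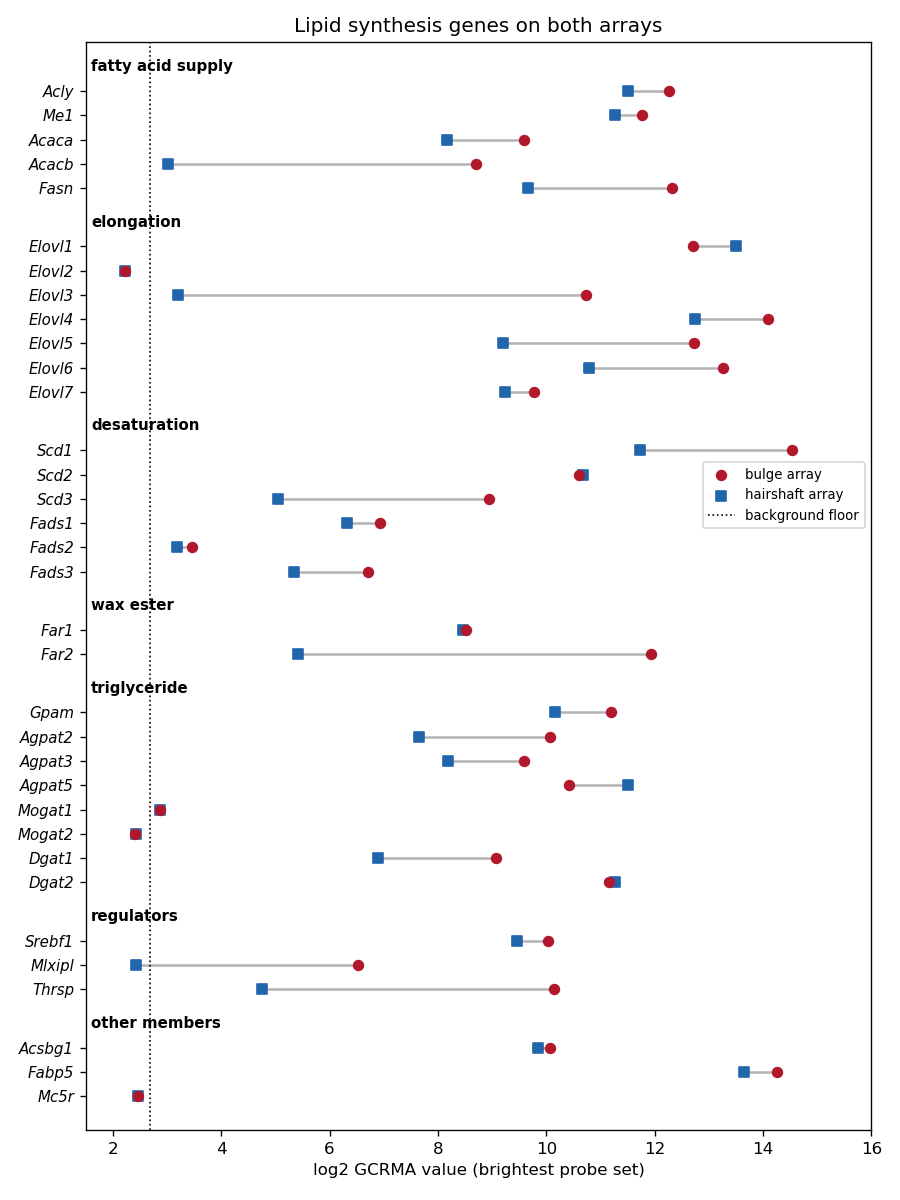
Log2 GCRMA value of the brightest probe set of each of the 34 measured members on the bulge array (red circles) and the hairshaft array (blue squares), grouped by role; a grey line joins the values of a gene and the dotted line is the background of 2.68. The longest lines are those of Elovl3, Far2, Acacb and Thrsp, and Agpat5 and Elovl1 run the other way.

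Promoters of 6 members are printed to show what stands before 5 genes with large differences toward the bulge, and before Elovl1, an elongase that was higher in the hairshaft. These 6 were chosen after the values and the motif matches were seen. They are RefSeq windows of GRCm38.p6, from 250 bases before to 50 after an annotated start, 5′ to 3′ on the strand of the gene. Capitals mark matches, on either strand, to the sterol regulatory element core TCACNCCAC, the E-box CACGTG, the CCAAT box CCAAT, the GC box GGGCGG and the nuclear receptor core motif AGGTCA.
Far2, chr6:148047166-148047465, plus strand: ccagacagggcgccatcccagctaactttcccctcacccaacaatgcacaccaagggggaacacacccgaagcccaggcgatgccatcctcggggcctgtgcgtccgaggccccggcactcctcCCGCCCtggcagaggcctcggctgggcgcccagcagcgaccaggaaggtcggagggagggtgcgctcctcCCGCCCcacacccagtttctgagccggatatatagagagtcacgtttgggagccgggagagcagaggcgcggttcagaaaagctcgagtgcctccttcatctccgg
Thrsp, chr7:97417501-97417800, minus strand: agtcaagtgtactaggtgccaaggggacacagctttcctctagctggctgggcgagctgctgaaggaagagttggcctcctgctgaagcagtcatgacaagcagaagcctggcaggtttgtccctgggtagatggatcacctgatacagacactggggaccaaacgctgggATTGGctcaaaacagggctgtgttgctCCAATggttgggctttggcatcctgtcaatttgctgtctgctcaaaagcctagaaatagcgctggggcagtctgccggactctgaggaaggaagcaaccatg
Fasn, chr11:120824498-120824797, minus strand: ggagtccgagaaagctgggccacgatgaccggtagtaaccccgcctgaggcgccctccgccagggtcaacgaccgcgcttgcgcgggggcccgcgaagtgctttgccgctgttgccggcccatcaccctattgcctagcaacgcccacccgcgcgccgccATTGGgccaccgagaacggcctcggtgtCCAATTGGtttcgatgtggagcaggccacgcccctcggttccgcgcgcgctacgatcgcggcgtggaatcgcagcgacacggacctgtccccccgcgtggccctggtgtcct
Elovl5, chr9:77917115-77917414, plus strand: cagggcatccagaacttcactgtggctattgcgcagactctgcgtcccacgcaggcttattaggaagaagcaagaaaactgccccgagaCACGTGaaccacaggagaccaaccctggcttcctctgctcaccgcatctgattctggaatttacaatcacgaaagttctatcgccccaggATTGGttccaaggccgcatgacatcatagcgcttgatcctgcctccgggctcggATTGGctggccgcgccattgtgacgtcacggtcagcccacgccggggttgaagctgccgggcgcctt
Mlxipl, chr5:135106641-135106940, plus strand: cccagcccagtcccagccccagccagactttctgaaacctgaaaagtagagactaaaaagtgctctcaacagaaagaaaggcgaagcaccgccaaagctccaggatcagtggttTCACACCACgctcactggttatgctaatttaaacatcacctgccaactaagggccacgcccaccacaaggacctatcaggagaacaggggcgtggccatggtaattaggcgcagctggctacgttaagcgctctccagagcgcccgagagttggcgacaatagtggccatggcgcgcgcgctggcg
Elovl1, chr4:118427843-118428142, plus strand: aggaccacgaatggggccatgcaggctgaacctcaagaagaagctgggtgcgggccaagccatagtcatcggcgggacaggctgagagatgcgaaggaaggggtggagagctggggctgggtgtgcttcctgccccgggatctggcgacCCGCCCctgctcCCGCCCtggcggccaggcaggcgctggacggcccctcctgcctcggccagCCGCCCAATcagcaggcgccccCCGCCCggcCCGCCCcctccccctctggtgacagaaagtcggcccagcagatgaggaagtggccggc

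In these windows Far2 had 2 GC boxes, and Thrsp had 2 CCAAT boxes in opposite orientation. Fasn had 3 CCAAT boxes, of which a forward and a reverse copy overlap as CCAATTGG. Elovl5 had an E-box and 2 CCAAT boxes. Mlxipl has 2 windows, and the one shown was picked because it holds the sterol regulatory element core, as TCACACCAC. The Elovl1 window shown, also 1 of 2, had 5 GC boxes, of which 1 overlaps its CCAAT box.

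Windows were found for 27 of the 38 members, 35 windows in all. The E-box stood in 3 of these 35 windows, those of Elovl4, Elovl5 and Mlxipl, against 7.15% of all 32851 windows. The sterol regulatory element core stood in 1 of 35, against 1.24% of all windows. CCAAT boxes were in 19 of 35, against 37.4%, GC boxes in 17, against 35.7%, and nuclear receptor core motifs in 5, against 16.3%. Of the 17 members higher in the bulge by 2-fold or more, 14 had a window. Of these 14, 3 had an E-box, 8 a CCAAT box and 6 a GC box. Of 9 members under 2-fold apart with a window, 7 had a CCAAT box and 7 a GC box. Both sets of counts are by gene, over any of its windows, whereas the shares of all promoters are by window. A match is a description of these letters only.

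Enzymes that supply and build fatty acids were all higher in the bulge, with 3 of 5 past 2-fold. Fatty acid synthase (Fasn), which assembles the chain, was 12.32 in the bulge against 9.67 in the hairshaft, 6.27-fold apart. Acetyl-CoA carboxylase 1 (Acaca), which makes the malonyl-CoA for this synthesis, was 9.59 in the bulge against 8.17 in the hairshaft. Its difference of 1.41 became 0.74 when its probe sets were averaged, since the second one was dim on both arrays (3.24 in the bulge against 3.17 in the hairshaft). Acacb encodes the carboxylase of the mitochondrial surface, typical of muscle and fat, whose malonyl-CoA limits fatty acid import. Acacb was 8.71 in the bulge against 3.02 in the hairshaft, 51.7-fold apart. The log2 difference was 5.69, and 4.50 when background was set at the 99th percentile. It became 2.85, under 8-fold, when its 2 probe sets were averaged, of which the second was below background on both arrays (2.48).

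Acly, which releases acetyl-CoA from citrate, and Me1, which supplies NADPH, were under 2-fold apart by their brightest probe sets. Acly read 12.26 in the bulge against 11.51 in the hairshaft with a probe set of the _x_at type, whose probes can match other transcripts. Its other 2 probe sets above background differed by 1.23 and 1.53, so that Acly passed 2-fold with plain probe sets. Me1 was 11.77 in the bulge against 11.28 in the hairshaft, and its second probe set differed by 0.74.

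The elongases, which add carbons to fatty acids at the endoplasmic reticulum, were divided: 4 of 6 above background were higher in the bulge by 2-fold or more, and Elovl1 was higher in the hairshaft. Elovl3 makes very long saturated and monounsaturated chains and is known from mouse sebaceous gland and brown fat. By brightest probe sets it had the largest difference of all members, 10.73 in the bulge against 3.19 in the hairshaft (186-fold), and ranked 46 among 13329 genes. Its log2 difference of 7.54 became 6.52 when background was set at the 99th percentile. Elovl5, an elongase of polyunsaturated chains, was 12.73 in the bulge against 9.21 in the hairshaft (11.5-fold), and its second probe set differed by 3.20. Elovl6, which turns palmitate into stearate, was 13.26 in the bulge against 10.78 in the hairshaft (5.59-fold). Its 3 probe sets differed by 2.48, 2.12 and 0.92, the last being the dimmest.

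Elovl4, the elongase of the ultra-long chains of the epidermal barrier, was 14.09 in the bulge against 12.75 in the hairshaft (2.54-fold), and both of its probe sets gave nearly the same difference, 1.35 and 1.33. Elovl7, an elongase of saturated chains, had 9.77 in the bulge against 9.24 in the hairshaft. All 6 of its probe sets were higher in the bulge, with differences between 0.17 and 0.99, so that none reached 2-fold. Elovl1, which makes the very long saturated chains found in ceramides, was 12.72 in the bulge against 13.50 in the hairshaft. All 4 Elovl1 probe sets were higher in the hairshaft, by differences between -0.38 and -1.22, and only the dimmest passed 2-fold. Elovl2, an elongase of polyunsaturated chains in liver and retina, was at the bottom of the scale on both arrays (2.23).

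The desaturases, which insert double bonds, were higher in the bulge for 5 of 6 members, with 3 past 2-fold. Scd1, the main stearoyl-CoA desaturase of sebocytes and fat cells and the gene mutated in asebia mice, was 14.54 in the bulge against 11.72 in the hairshaft. Its second probe set, which is dimmer, differed by more (11.59 in the bulge against 8.11 in the hairshaft, log2 3.48 against 2.82). Scd3, a paralog known from sebaceous and Harderian glands, was 8.94 in the bulge against 5.05 in the hairshaft (14.8-fold), and at least 11.6-fold apart with its second probe set. Scd2, a paralog with a main role in brain and in newborn skin, was 10.60 in the bulge against 10.68 in the hairshaft, while its other probe sets were higher in the bulge by 0.75 and 0.85. Scd1, Scd2 and Scd3 are close in sequence, so their probe sets may share signal, which was not tested.

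Fads1, Fads2 and Fads3 belong to the family that desaturates polyunsaturated fatty acids. Fads3 was 6.71 in the bulge against 5.35 in the hairshaft (2.57-fold), with all 3 probe sets past 2-fold. Fads1 was 6.93 in the bulge against 6.32 in the hairshaft. Fads2, whose human counterpart makes the sapienic acid of human sebum, was close to background, at 3.46 in the bulge against 3.18 in the hairshaft.

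Of the wax ester genes, only the reductases were measured. They reduce fatty acyl-CoA to the fatty alcohols of wax, and the synthases Awat1 and Awat2 would join these to fatty acids. Far2 was 11.93 in the bulge against 5.42 in the hairshaft (90.9-fold), and its second probe set, which is dimmer, gave 76.1-fold. Far1, the reductase found in most tissues, was 8.52 in the bulge against 8.46 in the hairshaft. Of the 5 probe sets of Far1, 4 were higher in the bulge, by up to 0.71, and the dimmest was higher in the hairshaft (-0.71).

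Triglyceride synthesis was mixed along its steps, with 4 of 7 members higher in the bulge by 2-fold or more and 1 in the hairshaft. Gpam, which adds the first fatty acid to glycerol phosphate at mitochondria, was 11.20 in the bulge against 10.17 in the hairshaft (2.04-fold), and its second probe set differed by 1.59. The acyltransferases of the next step went different ways. Agpat2, the enzyme lost in a human lipodystrophy, was 10.08 in the bulge against 7.65 in the hairshaft (5.39-fold). Agpat3 was 9.59 in the bulge against 8.18 in the hairshaft, and its 4 probe sets differed by 0.56 to 2.17. With plain probe sets Agpat3 was under 2-fold apart (log2 0.56). Agpat5, a mitochondrial family member, was the only one of the 31 higher in the hairshaft by 2-fold or more, with 10.41 in the bulge against 11.52 in the hairshaft (log2 difference -1.11). Its second probe set gave -1.17, and Agpat5 was under 2-fold apart when its probe sets were averaged (-0.76) or a loess trend was removed (-0.97). The average includes a further Agpat5 probe set that was below background on both arrays (2.30).

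The last step also differed between its enzymes. Dgat1 was 9.07 in the bulge against 6.89 in the hairshaft (4.54-fold). Its log2 difference of 2.18 became 1.09 when its 2 probe sets were averaged, of which 1 was below background. Dgat2, the other diacylglycerol acyltransferase, was 11.17 in the bulge against 11.26 in the hairshaft with its brightest probe set, and 11.16 in the bulge against 11.07 in the hairshaft with the other. Mogat1, which acylates monoacylglycerol, read exactly 2.87 on both arrays, just over background, and Mogat2, its intestinal counterpart, was below background (2.41 in the bulge against 2.43 in the hairshaft).

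The regulators differed among themselves. Thrsp (Spot 14), a nuclear protein of lipogenic tissues such as fat and liver, was 10.14 in the bulge against 4.75 in the hairshaft (41.8-fold). A second probe set of Thrsp read 11.31 in the bulge against 2.40 in the hairshaft, at least 398-fold, so the size depends on the probe set. Mlxipl (ChREBP), the transcription factor that links sugar supply to lipogenesis, was 6.53 in the bulge and below background in the hairshaft (2.42), so that the fold was at least 14.4. The log2 difference of 3.85 became 2.32 when background was set at the 99th percentile. Srebf1, the transcription factor that turns on fatty acid synthesis genes, was 10.03 in the bulge against 9.46 in the hairshaft, under 2-fold apart. The 1 probe set of Srebf1 does not report on processing of its protein.

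Neither of the remaining members above background passed 2-fold. Fabp5, the epidermal fatty acid carrier, was 14.26 in the bulge against 13.65 in the hairshaft. Acsbg1, an acyl-CoA synthetase, was 10.06 in the bulge against 9.86 in the hairshaft. Mc5r, the melanocortin receptor of sebaceous glands, was 2.47 on both arrays, below background, so its expression was not detectable with this probe set.

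**Figure D2:**
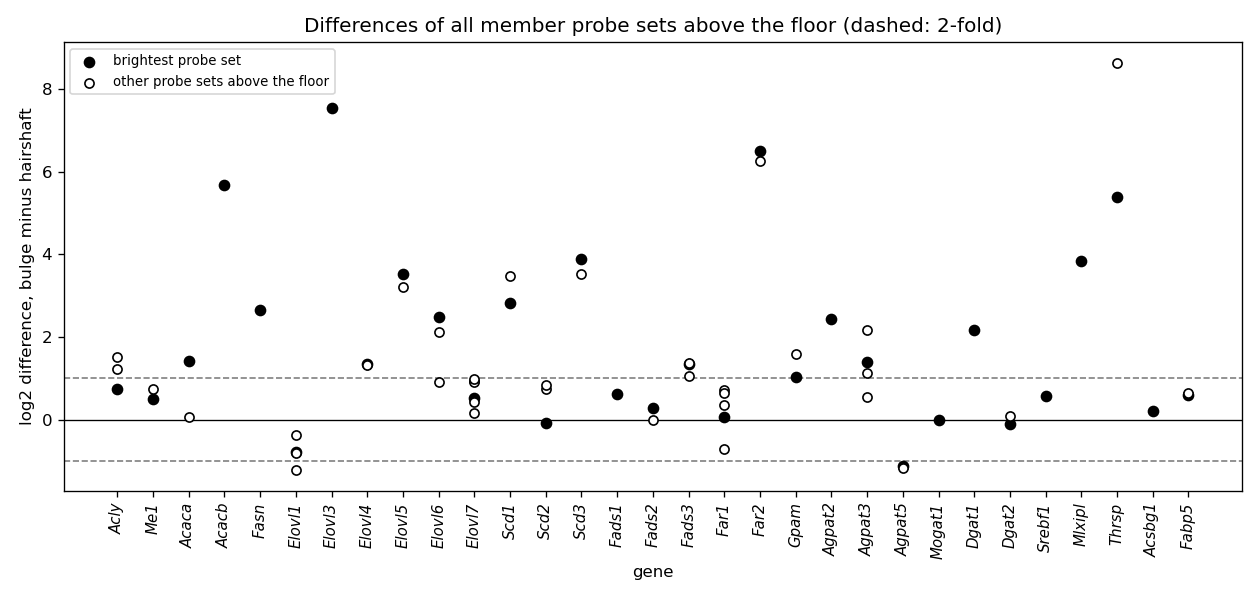
Log2 difference, bulge minus hairshaft, of each of the 67 member probe sets above background, by gene; filled circles are the brightest probe set of a gene, open circles the others, and dashed lines the 2-fold limit. The probe sets of Far2, Elovl5 and Scd3 lie close together far above the limit, all Elovl1 and Agpat5 probe sets lie below 0, and those of Thrsp, Agpat3 and Far1 spread.

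Repeat measurements came only from probe sets of the same gene, which share RNA and array and are not replicates. Of 67 member probe sets above background, 31 were higher in the bulge by 2-fold or more and 3 in the hairshaft, whereas of all 24173 named probe sets above background 9.87% were higher in the bulge by 2-fold or more and 6.75% in the hairshaft. Of 21 members with 2 or more such probe sets, 17 had all of them in 1 direction, and over all genes this held for 3126 of 6256. A probe set with equal values on both arrays had no direction, so genes with equal values were not among the 3126. These counts thus do not compare how well probe sets agree. The exceptions among the members were Scd2, Far1, Dgat2 and Fads2, whose second probe set above background was equal on both arrays (3.07). Acly, Acaca, Elovl1, Elovl6 and Agpat3 had probe sets on both sides of the 2-fold limit.

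Other genes of the pathway were counted in the same way. Of 41 further lipid synthesis genes above background (of 49 listed), 16 (39.0%) were higher in the bulge by 2-fold or more, against 11.4% of all genes. Toward the hairshaft 2 (4.88%) passed 2-fold, near the 4.91% of all genes. The other 23 were under 2-fold apart, and the median was 0.77. The 4 past 8-fold were Acss2, which makes acetyl-CoA from acetate (9.83 in the bulge against 5.39 in the hairshaft), Insig1, which restrains SREBP processing (9.31 in the bulge against 5.28 in the hairshaft), Pcx, which replenishes oxaloacetate (9.48 in the bulge against 5.51 in the hairshaft), and Lpin1, a phosphatidate phosphatase of muscle and fat (7.97 in the bulge against 4.95 in the hairshaft). Hacd4 (log2 difference -1.89) and Agpat4 (-1.30) were the 2 higher in the hairshaft by 2-fold or more. Whether the members differ from these genes was not tested.

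The later steps of each elongation round, named after their values were seen, were higher in the bulge by some amount with 1 exception. Over all genes above background, 44.8% were higher in the bulge by some amount. The ketoacyl reductase Hsd17b12 differed by 1.93, the dehydratases Hacd1, Hacd2 and Hacd3 by 1.53, 0.77 and 0.83, and the enoyl reductase Tecr by 0.78. Only Hsd17b12 and Hacd1 passed 2-fold toward the bulge. Hacd4 was the only enzyme of these steps above background that was higher in the hairshaft, and it passed 2-fold (-1.89).

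Markers of fat, gland and muscle cells moved with these genes. Of 6 sebocyte markers outside the members, 4 were higher in the bulge by 2-fold or more: Cidea (10.45 in the bulge against 3.45 in the hairshaft), Pparg (7.96 in the bulge against 2.47, below background, in the hairshaft), Mgst1 (12.86 in the bulge against 8.79 in the hairshaft) and Plin2 (11.86 in the bulge against 8.14 in the hairshaft). The other 2, Apoc1 and Prdm1, differed by 0.36 and -0.66. All 13 adipocyte markers were higher in the bulge, with a median difference of 6.53, and their signal summed on the linear scale was 65436 in the bulge against 572 in the hairshaft. Adipoq, Retn, Lep, Cidec and Acvr1c were at or below background in the hairshaft. All 14 skeletal muscle markers were past 8-fold, with a summed signal of 208068 in the bulge against 95.2 in the hairshaft.

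The summed signal of the 34 measured members was 119938 in the bulge against 55201 in the hairshaft, and that of the 6 sebocyte markers 15747 in the bulge against 3501 in the hairshaft. Epidermal keratinocyte markers summed to 165367 in the bulge against 174660 in the hairshaft, a sum made up mostly of the brightest genes. All 8 were higher in the hairshaft by some amount, with a median difference of -0.04 (log2), and 7 of 8 were under 2-fold apart. The largest differences were those of involucrin (Ivl), 2.63-fold, and Flg, 1.73-fold, which were the dimmest of these markers. The others read from 13.82 (Krt1 in the bulge) to 15.36 (Krt10 in the hairshaft), the highest value of both arrays. Whether differences are compressed at the top of the scale was not tested. Many members are also made by fat cells, and Acacb by muscle. Of these, Thrsp, Acacb, Scd1, Fasn, Elovl6, Agpat2, Dgat1 and Mlxipl were past 2-fold toward the bulge. Acly, Me1, Srebf1 and Dgat2, which fat cells also make, were under 2-fold apart by their brightest probe sets. What part fat, muscle or gland cells had in the members' differences was not tested and cannot be told apart with 1 array for each label.

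**Figure D3:**
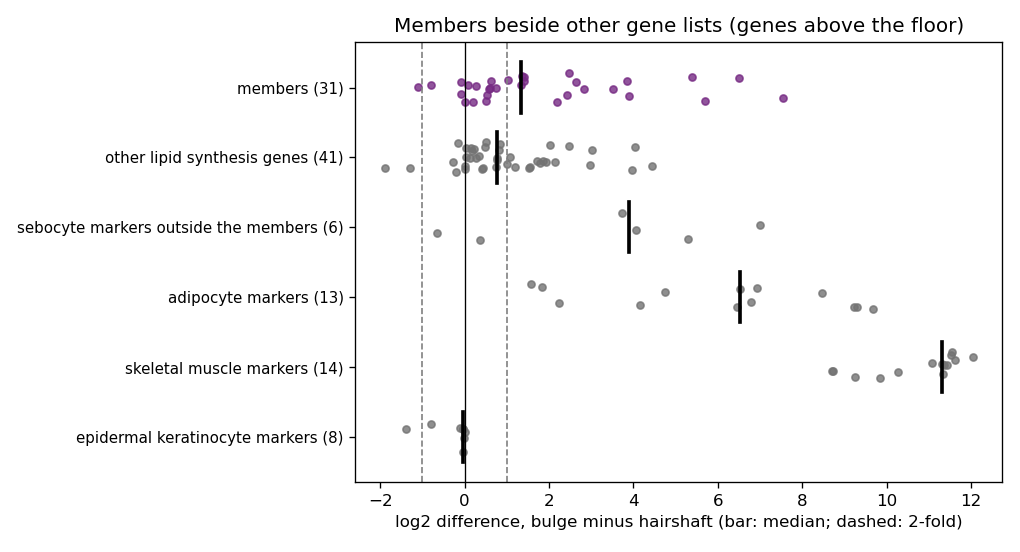
Log2 difference, bulge minus hairshaft, of each gene above background in 6 lists; points are genes (numbers in brackets, spread vertically for sight only), thick bars the medians and dashed lines the 2-fold limit. The members have a median of 1.35, adipocyte markers of 6.53, skeletal muscle markers of 11.32 and epidermal keratinocyte markers of -0.04.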

How the data were processed

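RNA of 1 bulge and 1 hairshaft sample was measured on arrays of 45101 probe sets. The authors deposited 1 log2 value per probe set, made with GCRMA, per the submitters' processing notes, which models background by probe sequence, normalizes between arrays and combines the probes of a set; its version is not given in the sources used here. That the scale is log2 follows from the range (2.23 to 15.36). Exactly equal values on both arrays occurred for 17293 probe sets, 11 of them of members. No column was left unused (0 unmatched).

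A platform annotation gave 34958 probe sets 1 symbol, 932 several and 9211 none. For 34754 of those with 1 symbol, the RefSeq (GRCm38.p6) symbol of the Entrez identifier was used, whether or not it differed. For each of 18194 genes the probe set brightest on average was used. Background was the 95th percentile of receptor probe sets with 1 symbol, a definition settled after results with a wider set had been seen. Genes above it on 1 array or more (13329) were counted where they differed by 2-fold and by 8-fold, with background in place of lower values. Genes with both values equal above background numbered 1154. No test was run: with 1 array per group there are 0 residual degrees of freedom. Arrays have no read depth, and having 1 of each sets the precision.

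All members were named, with up to 4 genes of the largest difference from each other list and any others behind a count of 5 or fewer. The members and lists were chosen with earlier results of these data known. The counting was checked on simulated data with an assumed noise and with changes well past 2-fold in bright genes. Changes near the 2-fold limit or in dim genes were not simulated, so the check does not cover them. The 8 alternatives were the 99th percentile as background (4.21), no background limit, averaging of the probe sets of a gene, plain probe sets alone (no suffix _a_at, _s_at or _x_at), 16 added to linear values before log2, a loess trend subtracted (span 0.3), the median difference subtracted, and quantile normalization. The software was matplotlib 3.10.9, statsmodels 0.14.6, numpy 2.4.6 and pandas 2.3.3 under Python 3.11.15.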

Additional observations from a re-analysis of the deposited data

How the results depend on the processing

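The count of members higher in the bulge by 2-fold or more was 17 and ran from 15 (plain probe sets) to 17 over the 8 alternatives; that at 8-fold was 7 and ran from 6 to 7 (6 without Mlxipl at the 99th percentile and with the offset of 16, where it was under 8-fold, and with plain probe sets, of which it has none; averaged probe sets kept 6 of the 7 and put Scd1 in place of Acacb), and the median of 1.35 from 0.89 (no background limit) to 1.36. The count higher in the hairshaft, 1, became 0 when probe sets were averaged and when a loess trend was removed. For the other lipid synthesis genes the 16 higher in the bulge ran from 15 to 17, and the 2 higher in the hairshaft became 1 with plain probe sets. Of 242 single member values, 15 of 9 members moved by over 1.5-fold, 12 of them to a smaller size, and none of a member past 2-fold changed direction. Scd2 (0.06) and Dgat2 (0.05), both under 2-fold apart, were higher in the bulge with the loess trend removed, and Scd2 (0.51) also with averaged probe sets. The sizes for Thrsp (4.77 to 8.64, log2), Acacb (2.85 to 5.69), Elovl3 (6.09 to 7.56) and Mlxipl (2.27 to 4.11) depend on probe sets and on dim hairshaft values. The cause was not tested beyond these constructions. The background was first computed over 92 receptor probe sets, including those with several symbols (2.76 in the bulge and 2.72 in the hairshaft), and was limited to the 80 with 1 symbol after those results had been seen. With 92, the counts of members (17, 1 and 7) and their median (1.35) were the same as with 80, 13200 genes were above background, and no member value shifted by more than 0.04 (log2). No paired analysis was possible because each group holds 1 array, and for the same reason no replicate could be left out.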
